A study of Homo sapiens with 4 samples.

Results

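Cadherins are transmembrane adhesion proteins whose outer repeats bind cadherins on a neighbouring cell in the presence of calcium. The tail of a classical cadherin binds p120 catenin next to the membrane and β-catenin or plakoglobin farther along, and α-catenin links that complex to actin. Breast epithelium is known for E-cadherin (CDH1), and mesenchymal-like breast cancer cells often carry other cadherins in its place. α-Catenin at adherens junctions is also known as a restraint on YAP, the co-activator of the TEAD transcription factors.

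The 10 genes described here are 7 cadherins (CDH3, CDH4, CDH5, CDH6, CDH11, CDH13 and CDH24) and 3 catenins (CTNND1, CTNNA1 and JUP), out of 48162 genes in the table. They were picked by name as relatives of CDH1 and CDH2, which were left out, with the large fall of CDH4 after MGH-CP1 already known. The comparison of MGH-CP1 with vehicle control is therefore a description for them: their calls in the fit over all genes are stated, no p-value is, and nothing is supported with them. Of the 3 catenin genes, CTNND1 encodes p120 catenin, CTNNA1 α-catenin and JUP plakoglobin, also called γ-catenin. CDH13 encodes T-cadherin, which is held by a lipid anchor, has no tail and is no classical cadherin.

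The RNA was from MDA-MB-231, a line of human breast cancer cells with mesenchymal-like character, grown in DMEM with serum. Cells received vehicle control or MGH-CP1, a small molecule that blocks the palmitoylation of TEAD, for 24 h, and each condition has 2 libraries. The sample labels give the dose as 10 µM and the methods of the study as 10 mM. No source used here says whether the 2 libraries of a condition came from separate cultures, so their spread, and every p-value from it, may be technical. With 2 libraries against 2, an exact permutation test of a single gene cannot go below p = 0.333.

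Values are FPKM, the fragments of a gene scaled to its length in kilobases and to a fixed total of fragments on listed genes. The libraries held 25455533 and 25508824 fragments on genes for vehicle control, and 17997221 and 17577930 for MGH-CP1, so depth differed between the conditions and its part in the results was not tested. The 4 markers of a mesenchymal-like line (VIM, CD44, EGFR and AXL) were all above 1 FPKM and summed to 809 and 807 FPKM in vehicle control against 664 and 702 in MGH-CP1 libraries. The lower sum was mostly AXL, at 274 and 293 FPKM in vehicle control and 149 and 187 in MGH-CP1 libraries, with EGFR at 49.7 and 48.5 against 34.9 and 36.1, while VIM and CD44 were not called by limma. Of 5 luminal or epithelial markers, ESR1, PGR and CDH1 were near 0, whereas ERBB2 and EPCAM were present, and the 5 summed to between 37.4 and 43.3 FPKM. The endothelial markers found (4 of 5; PECAM1 was not analysed here) summed to between 1.16 and 1.66 FPKM, nearly all of it KDR, with TEK, TIE1 and CLDN5 near 0. The 3 immune markers summed to 2.46 and 1.79 FPKM in vehicle control and 4.09 and 3.32 in MGH-CP1 libraries, nearly all of it CD14, with CD3E at 0 fragments and PTPRC at no more than 3. What part these marker levels have in the results was not tested.

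The tails of the cadherins share the short element that p120 catenin binds, a pair of acidic residues followed by glycines and a further acidic residue. It was found in 6 of the 7 cadherin genes, and it is shown because it is what joins these cadherins to CTNND1. The lines give 48 coding bases of each gene from GENCODE release 29 (GRCh38), read in the direction of the gene, with the 18 bases that encode the element in capitals.
CDH4: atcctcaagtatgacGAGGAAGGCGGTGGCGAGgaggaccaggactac
CDH11: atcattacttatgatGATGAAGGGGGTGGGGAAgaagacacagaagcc
CDH24: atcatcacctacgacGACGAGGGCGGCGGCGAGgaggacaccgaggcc
CDH3: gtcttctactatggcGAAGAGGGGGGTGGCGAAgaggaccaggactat
CDH5: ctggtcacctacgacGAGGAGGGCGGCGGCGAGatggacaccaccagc
CDH6: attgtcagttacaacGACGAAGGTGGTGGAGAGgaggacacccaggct

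In GRCh38 the CDH4 stretch lies at chr20:61933083-61934061 on the plus strand, across an exon junction, and the CDH3 stretch at chr16:68695344-68695782 on the plus strand, also across a junction. Those of CDH11 (chr16:64947969-64948016, minus strand), CDH24 (chr14:23048349-23048396, minus), CDH5 (chr16:66402738-66402785, plus) and CDH6 (chr5:31322901-31322948, plus) each lie within a single exon. Compared with CDH4, the stretch of CDH3 was identical at 38 of 48 bases (79.2%), that of CDH24 at 35 (72.9%) and that of CDH11 at 32 (66.7%). CDH5 and CDH6 each matched CDH4 at 31 bases (64.6%). The element was not found in the coding sequence of CDH13, which ends without a tail. Across the whole coding sequences, the longest run shared exactly by any 2 of the 10 genes was 26 bases, between CDH11 and CDH24, against a read length of 150 bases.

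Of the 10 genes, 6 reached the mean of 1 FPKM required for the fit over all genes: CDH4, CDH11, CDH24, CTNND1, CTNNA1 and JUP. In the limma fit of log2(FPKM + 1), 5 of the 6 were called higher and 1 was called lower at an adjusted p under 0.05 (Benjamini-Hochberg over 12080 genes). Over all genes tested, 27.1% were called higher and 23.8% lower, and nothing is read from the count for the 6, since they were picked with this comparison known. Their median log2 fold change was 0.29, beside 0.01 over all genes tested. In each of the 6 genes the MGH-CP1 libraries lay beyond both vehicle control libraries, as they did in 77.2% of all genes tested, so nothing is read from this count either. All of this is RNA of whole cultures, in which fewer cells carrying a transcript and less of it per cell cannot be told apart.

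**Figure D1:**
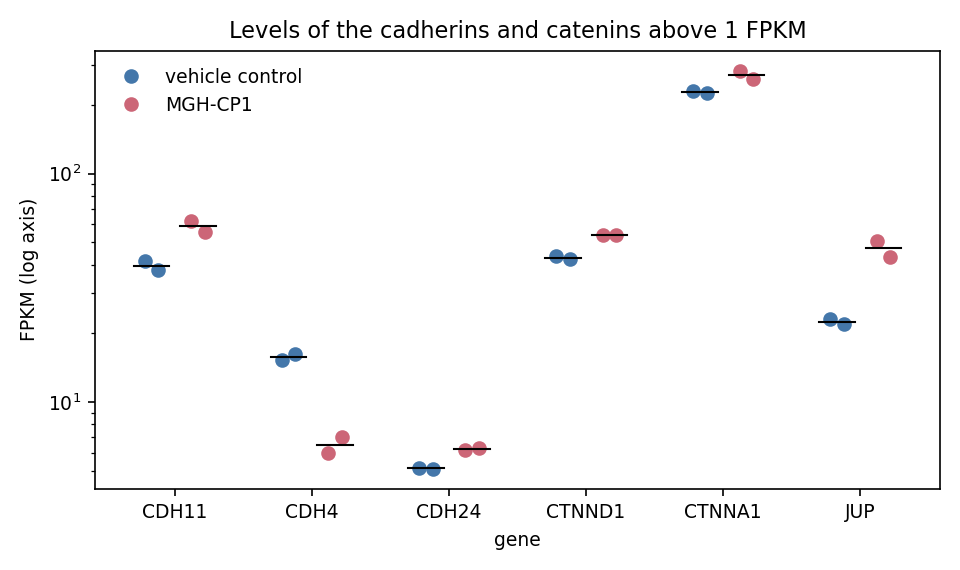
FPKM on a log axis for the 6 genes above a mean of 1 FPKM, with 1 point per library (blue vehicle control, red MGH-CP1) and a line at the mean of each condition. CDH4 is the gene whose MGH-CP1 points lie below its vehicle control points, and JUP has the widest gap upward.

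CDH4 encodes R-cadherin, a classical cadherin of the same type as E- and N-cadherin that is best known from retina, kidney and brain. Vehicle control libraries held CDH4 at 15.2 and 16.2 FPKM, and those given MGH-CP1 held it at 5.999 and 7.01. The mean went from 15.7 ± 0.689 FPKM (SD, n = 2) to 6.50 ± 0.713 (SD, n = 2), which is 41.4% of the vehicle control. These values rest on 2522 and 2689 fragments in vehicle control and 703 and 802 in MGH-CP1 libraries. The log2 fold change was -1.16 with a standard error of 0.08. By that measure CDH4 stood 6th from the bottom of the 12080 genes tested, and 21st by the plain ratio of means. The gene (ENSG00000179242) spans chr20:59827482-60515673 on the plus strand in the coordinates of the table, for which the submitters' processing notes name hg19. The 2 other genes listed within that span had 0 fragments in every library.

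CDH11, or OB-cadherin, is a type II classical cadherin of mesenchymal cells and osteoblasts. Its RNA was the most abundant of the cadherins, at 41.3 and 37.9 FPKM in vehicle control and 62.0 and 55.7 in MGH-CP1 libraries. The means were 39.6 ± 2.42 FPKM and 58.8 ± 4.47 (SD, n = 2 each), a ratio of 1.49, with a log2 fold change of 0.56 and a standard error of 0.07. Between 6639 and 7669 fragments per library lie behind these values. The gene (ENSG00000140937) is on the minus strand at chr16:64977656-65160015, with no other listed gene inside it.

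CDH24 is a less studied type II cadherin. It was listed at 5.15 and 5.10 FPKM in vehicle control and 6.16 and 6.33 in MGH-CP1 libraries, from 394 to 466 fragments. The ratio of means was 1.22, and the log2 fold change 0.24 with a standard error of 0.07. Its call was lost when any 1 of the 4 libraries was left out. CDH24 (ENSG00000139880) lies on the minus strand at chr14:23516271-23526747.

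The other 4 cadherins were at or near 0. CDH3, the P-cadherin of basal epithelium, had 18 and 9 fragments in vehicle control and 4 and 5 in MGH-CP1 libraries. In FPKM these are 0.191 and 0.0953 against 0.0600 and 0.0768. The exact Poisson 95% intervals, which cover counting error only, run from 0.113 to 0.302 and from 0.0436 to 0.181 in vehicle control, and from 0.0164 to 0.154 and from 0.0249 to 0.179 in MGH-CP1 libraries. Each vehicle control interval overlaps both MGH-CP1 intervals, but such overlap does not decide whether the conditions differ. CDH3 was below the mean of 1 FPKM, and a difference was not tested in the main fit. CDH13 had 3, 2, 3 and 3 fragments in the 4 libraries.

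CDH5, the VE-cadherin of endothelium, and CDH6, a type II cadherin of kidney and its tumours, had 0 fragments in all 4 libraries. By the usual one-sided limit a count of 0 allows up to 3 fragments per library (the upper end of the two-sided Poisson interval is 3.69), which for CDH5 is 0.0286 FPKM in either vehicle control library and 0.0405 and 0.0415 FPKM in the MGH-CP1 libraries. For the longer CDH6 that limit is 0.0139 FPKM in vehicle control and 0.0197 and 0.0201 in MGH-CP1 libraries. CDH3 (ENSG00000062038), CDH13 (ENSG00000140945) and CDH5 (ENSG00000179776) lie on chromosome 16 like CDH11, and CDH6 (ENSG00000113361) on chromosome 5.

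The cadherins left out by name were also low. CDH1 was listed at 0.363 and 0.289 FPKM in vehicle control and 0.638 and 0.572 in MGH-CP1 libraries, from 36 to 56 fragments. CDH2, the N-cadherin of mesenchymal and neural cells, was at 0.172 and 0.145 FPKM in vehicle control and 0.0898 and 0.171 in MGH-CP1 libraries. Of 13 other classical and related cadherins in all, these 2 included, 0 reached a mean of 1 FPKM, so none was tested by limma or by any alternative with that filter.

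CDH11, CDH4 and CDH24 thus made up nearly all of the classical cadherin RNA. Summed over 18 classical cadherins, the level was 62.5 and 59.8 FPKM in vehicle control and 75.1 and 70.0 in MGH-CP1 libraries, so the sum was not lower in the libraries where CDH4 was. The share of CDH4 in that sum was 24.4% and 27.1% in vehicle control and 7.99% and 10.0% in MGH-CP1 libraries. CDH11 held 66.1% and 63.3% against 82.6% and 79.6%. The share of CDH24 was 8.25% and 8.53% in vehicle control and 8.21% and 9.04% in MGH-CP1 libraries, ranges that overlap. The other 15 cadherins together held between 1.10% and 1.38% in every library.

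Ratios taken within a library do not depend on its scaling. CDH4 was at 0.369 and 0.428 of CDH11 in vehicle control and at 0.0968 and 0.126 in MGH-CP1 libraries. CDH24 was at 0.339 and 0.315 of the level of CDH4 in vehicle control and at 1.03 and 0.903 in MGH-CP1 libraries, where the pair had become about equal.

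**Figure D2:**
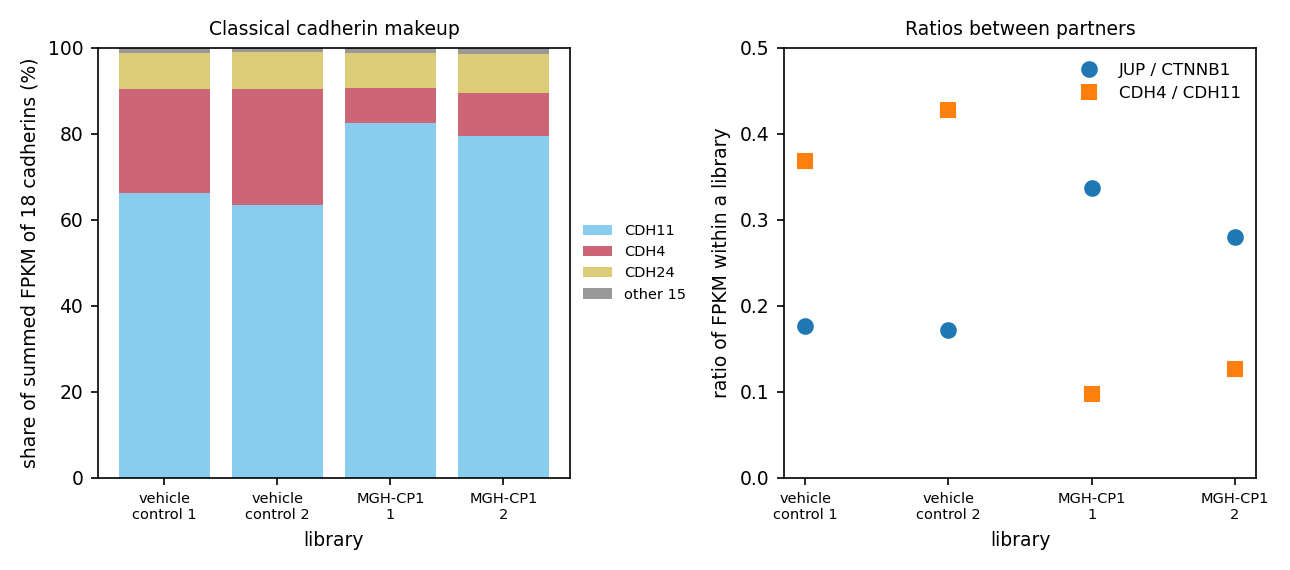
Left, the share (%) of CDH11, CDH4, CDH24 and the other 15 genes in the summed FPKM of 18 classical cadherins, as stacked bars per library; right, the ratio of JUP to CTNNB1 (circles) and of CDH4 to CDH11 (squares) in each library. The CDH4 band is at 24.4% and 27.1% in vehicle control and 7.99% and 10.0% in MGH-CP1 libraries, and the order of both ratios is exchanged between the conditions.

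CTNND1 encodes p120 catenin, which binds the element shown above and holds cadherins at the cell surface. It was at 43.6 and 42.2 FPKM in vehicle control and 53.8 and 54.1 in MGH-CP1 libraries. The means were 42.9 ± 1.03 and 54.0 ± 0.244 FPKM (SD, n = 2 each), a ratio of 1.26 with a log2 fold change of 0.32 and a standard error of 0.05. Against the summed classical cadherins, CTNND1 was at 0.699 and 0.705 in vehicle control and 0.717 and 0.774 in MGH-CP1 libraries. The gene (ENSG00000198561) lies on the plus strand at chr11:57520715-57587018. Of the 2 genes that overlap it, TMX2-CTNND1 had 0 fragments and RP11-691N7.6 from 1 to 4.

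CTNNA1, the α-catenin that ties the complex to actin, had by far the highest level of the 10 genes. It was at 229.7 and 224.4 FPKM in vehicle control and 282.4 and 258.7 in MGH-CP1 libraries. The ratio of means was 1.19, with a log2 fold change of 0.25 and a standard error of 0.05. Its MGH-CP1 libraries differ from each other by about as much as the lower of them differs from the higher vehicle control library, and without MGH-CP1 replicate 1 the log2 fold change was 0.19 and the call was lost. CTNNA1 (ENSG00000044115) lies on the plus strand at chr5:137946656-138270723, and the genes inside its span had no more than 2 fragments.

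JUP encodes plakoglobin, which takes the place of β-catenin in adherens junctions and also serves in desmosomes. Its level was 23.0 and 22.0 FPKM in vehicle control and 50.9 and 43.4 in MGH-CP1 libraries. The means were 22.5 ± 0.732 and 47.1 ± 5.32 FPKM (SD, n = 2 each), a ratio of 2.09 from 1962 to 3202 fragments. The log2 fold change was 1.03 with a standard error of 0.08, which is 185th from the top of the genes tested. The MGH-CP1 libraries differed from each other more than the vehicle control libraries did, but both lay well above them.

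JUP (ENSG00000173801) spans chr17:39775692-39943183 on the minus strand in the table, and 5 other listed genes lie in or across that span. EIF1, a translation initiation factor gene on the opposite strand, is the abundant one. It had 7051 to 10180 fragments and was at 162 and 171 FPKM in vehicle control and 170 and 172 in MGH-CP1 libraries. In the limma fit its log2 fold change was 0.04 (adjusted p = 0.547), with a sign that turned in 2 of 12 alternatives. The sources used here do not say whether fragments were counted by strand, so reads from JUP and EIF1 in shared positions may not be told apart. KRT17 had no more than 5 fragments and the other 3 genes had 0.

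Plakoglobin and β-catenin compete for the same cadherin site, so JUP was also set against CTNNB1, the β-catenin gene. JUP was at 0.176 and 0.171 of CTNNB1 in vehicle control and at 0.337 and 0.280 in MGH-CP1 libraries. Summed, the pair was at 153.9 and 150.3 FPKM in vehicle control and 201.7 and 198.0 in MGH-CP1 libraries. CTNNA1 was at 1.49 of that sum in both vehicle control libraries and at 1.40 and 1.31 in the MGH-CP1 libraries.

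**Figure D3:**
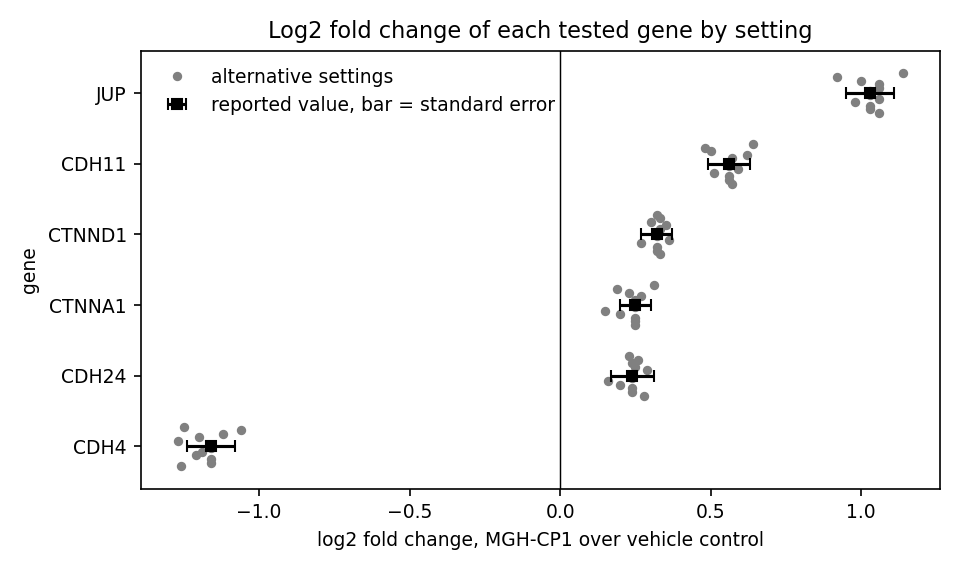
Log2 fold change (MGH-CP1 over vehicle control) of the 6 genes tested, as black squares with bars of 1 standard error, and grey points for the alternative ways of processing. CDH4 lies between -1.27 and -1.06 in all of them and JUP between 0.92 and 1.14, and no point crosses 0.

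In vehicle control the order of levels was CTNNA1, CTNND1, CDH11, JUP, CDH4, CDH24, CDH3 and CDH13, with no overlap between neighbours, and CDH5 and CDH6 at 0. The lowest places rest on few fragments, 18 and 9 for CDH3 and 3 and 2 for CDH13. In vehicle control replicate 2 their Poisson 95% intervals overlap, at 0.0436 to 0.181 FPKM for CDH3 and 0.00237 to 0.0708 for CDH13. In MGH-CP1 libraries CDH11 stood above CTNND1, with 55.7 to 62.0 FPKM against 53.8 to 54.1. CDH4 and CDH24, which were 3.06-fold apart in vehicle control, overlapped after MGH-CP1, with 5.999 to 7.01 FPKM against 6.16 to 6.33. FPKM is scaled to the listed gene length, and the annotation behind that length is not given. The order between genes is therefore approximate, above all where levels lie close.

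The catenins and p120 relatives outside the 10 genes moved both ways. Of 8 such genes, 4 were tested, of which limma called 2 higher and 2 lower, with a median log2 fold change of -0.18. PKP4, a relative of p120 catenin found at junctions and in desmosomes, was at 23.6 and 21.9 FPKM in vehicle control and 10.9 and 11.02 in MGH-CP1 libraries. It fell with a log2 fold change of -0.99 (SE 0.06, limma adjusted p = 2.63e-05). CTNND1 was thus at 1.85 and 1.93 of PKP4 in vehicle control and at 4.95 and 4.91 in MGH-CP1 libraries. CTNNAL1, an α-catenin relative, fell too (log2 fold change -0.59, SE 0.06, limma adjusted p = 0.000114). CTNNB1 rose from 130.9 and 128.3 FPKM to 150.8 and 154.6 (log2 fold change 0.23, SE 0.05, limma adjusted p = 0.00333), and CTNNBIP1, an inhibitor of β-catenin, rose by 0.30 on the log2 scale. ARVCF, another p120 relative, was below the mean of 1 FPKM and not tested, at 0.399 and 0.446 FPKM in vehicle control against 1.00 and 0.957 in MGH-CP1 libraries. CTNND2, CTNNA2 and CTNNA3 had no more than 2 fragments in any library.

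Desmosomes anchor keratin filaments and share plakoglobin with adherens junctions. Of 12 desmosome genes, 6 were tested, of which 3 were called higher and 2 lower, with a median log2 fold change of 0.08. The plakophilins, plaque proteins of the p120 family, were split. PKP2 went from 13.3 and 12.8 FPKM to 8.68 and 9.07 (log2 fold change -0.51, limma adjusted p = 0.000454), and PKP3 from 11.3 and 11.4 to 14.8 and 15.4 (0.38, limma adjusted p = 0.00129). DSC2, a desmosomal cadherin, was higher by 0.40, the membrane protein gene PERP was higher by 0.18, and DSG2 was lower with a log2 fold change of -0.17. These last calls were lost in 6, 5 and 6 of the alternatives. DSP, the linker to keratin, was at 34.1 and 33.3 FPKM in vehicle control and 32.0 and 34.6 in MGH-CP1 libraries and was not called (limma adjusted p = 0.819).

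Nectins are a second adhesion system of the adherens junction, and adaptors such as vinculin and α-actinin join junctions to actin. Among 14 such genes, 13 were tested, of which 1 was called higher, 5 lower and 7 were not called, with a median log2 fold change of -0.11. LIMA1, an actin-binding protein that attaches to α-catenin, was at 67.4% of vehicle control (log2 fold change -0.55, SE 0.07, limma adjusted p = 0.00032). ACTN1, an α-actinin, was at 72.1% (log2 fold change -0.47, SE 0.04, limma adjusted p = 0.000119), and the scaffold gene TJP1 at 73.9% (-0.41, SE 0.06, limma adjusted p = 0.00103). VCL, the vinculin gene, was not called, at 107 and 103 FPKM in vehicle control and 101 and 100.5 in MGH-CP1 libraries (log2 fold change -0.05, limma adjusted p = 0.378). ACTN4, another α-actinin, fell with a log2 fold change of -0.27, and CAMSAP3, a microtubule protein of junctions, was called higher at 0.34, a call lost in 7 of 11 alternatives.

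Of 20 genes for the trafficking, cleavage and phosphorylation of cadherins, all were tested, and 3 were called higher and 9 lower, with a median log2 fold change of -0.09. The phosphatase genes went both ways. More of them were called lower than higher in the main fit, but that majority rests on PTPN1 and PTPRK. Each had a log2 fold change of -0.18 (limma adjusted p = 0.0187 and 0.0382). Both lost the call without a filter, where as many phosphatase genes were called higher as lower. PTPN11 fell by 0.59 on the log2 scale (SE 0.05, limma adjusted p = 6.68e-05) and PTPRF by 0.45 (SE 0.06, limma adjusted p = 0.000679). PTPRJ rose by 0.39 (SE 0.05, limma adjusted p = 0.000344) and PTPRM by 0.30 (SE 0.05, limma adjusted p = 0.00195). CBLL1, the E3 ligase Hakai that marks E-cadherin for uptake, fell by 0.43, and FER, a kinase that binds p120 catenin, fell by 0.32, a call lost in 3 of 11 alternatives, among them those without vehicle control replicate 1 and without MGH-CP1 replicate 1. NUMB, an endocytic adaptor, rose by 0.37.

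Atypical cadherins and protocadherins have cadherin repeats but not the tail of a classical cadherin. Among 22 of these genes, 8 were tested, of which 3 were called higher and 1 lower, with a median log2 fold change of 0.14. FAT1, a giant cadherin that acts upstream of the Hippo pathway, went from 33.2 and 32.9 FPKM to 18.9 and 20.3 (log2 fold change -0.73, SE 0.06, limma adjusted p = 5.67e-05). CLSTN3, a calsyntenin, went from 2.43 and 2.61 FPKM to 6.05 and 6.24 (log2 fold change 1.02, SE 0.08, limma adjusted p = 6.92e-05). PCDH1 was higher with a log2 fold change of 0.59 (SE 0.08, limma adjusted p = 0.00075), and CELSR3, a planar polarity cadherin, with 0.40, a call lost in 4 of 11 alternatives. For all 5 of these lists the counts stand beside 27.1% called higher and 23.8% called lower over all genes tested.

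**Figure D4:**
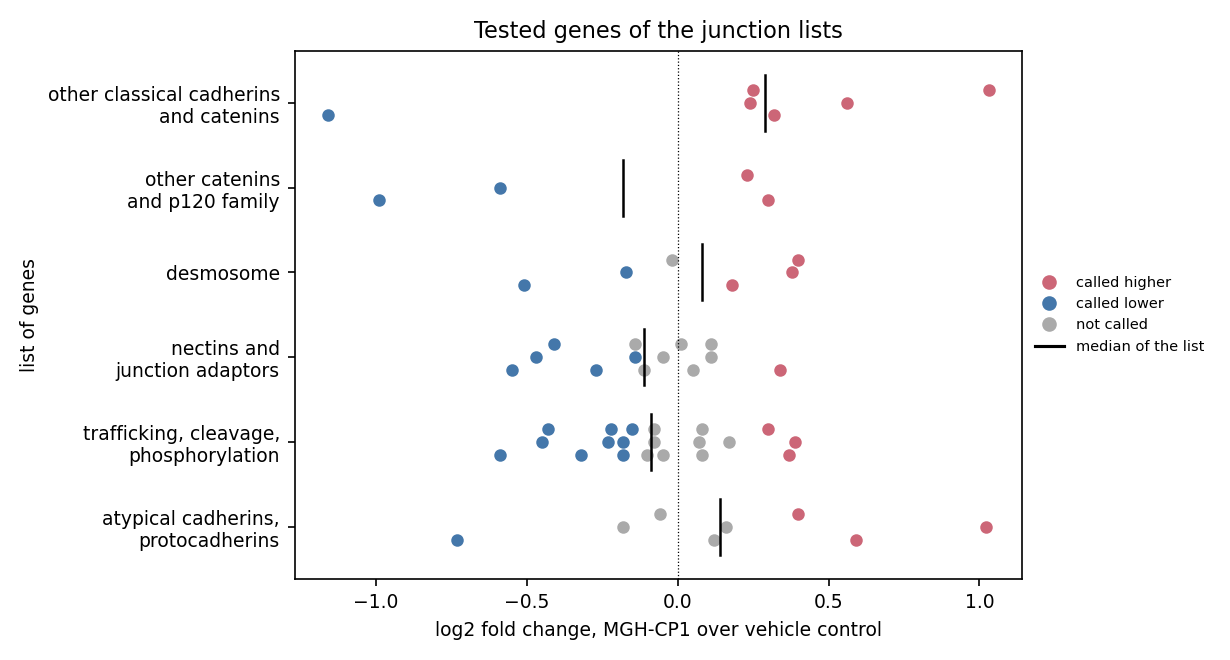
Log2 fold change of every tested gene in 6 lists of junction genes, with 1 point per gene coloured by its limma call and a line at the median of the list. CDH4 at -1.16 and PKP4 at -0.99 are the leftmost points, and JUP at 1.03 and CLSTN3 at 1.02 the rightmost.

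Of the genes within 500 kb of CDH4 on chromosome 20, 11 were tested, all beyond its far end, and 5 were called higher, 1 lower and 5 not called, beside 27.1% called higher and 23.8% lower over all genes. TAF4, a subunit of the general transcription factor TFIID, is the nearest. It lies on the minus strand, and its 3' end is 12.9 kb from CDH4. It was at 11.9 and 10.5 FPKM in vehicle control and 8.86 and 10.3 in MGH-CP1 libraries, with a log2 fold change of -0.20 (SE 0.09, limma adjusted p = 0.0924), and was called lower in 4 of 12 alternatives. LAMA5, a laminin chain gene 367 kb away, went from 36.7 and 41.3 FPKM to 72.6 and 73.9 (log2 fold change 0.90, SE 0.06, limma adjusted p = 3.67e-05) and was named after its value was seen. On the other side the nearest gene tested was FAM217B at 1.30 Mb (log2 fold change -0.23, SE 0.09, limma adjusted p = 0.0494), whose call was lost in 5 of 12 alternatives.

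The 5 genes whose profile over the 4 libraries lay closest to that of CDH4 were SLC7A5, AOX1, ENSG00000261061, PRKDC and RRM2. Closeness was the Euclidean distance between centred log2(FPKM + 1) values, from 0.051 for SLC7A5 to 0.094 for RRM2. SLC7A5, an amino acid transporter, was at 183 and 189 FPKM in vehicle control and 75.5 and 90.3 in MGH-CP1 libraries, or 44.7% of vehicle control. AOX1, an aldehyde oxidase, went from 9.03 and 9.50 FPKM to 3.33 and 4.17. They were chosen for this likeness, over 4 libraries, and their values are a description.

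RefSeq promoter windows (GRCh38.p14, the 250 bases before a start) were at hand for 3 of the 10 genes, CTNNA1, JUP and CDH4, with 8 windows between them. A gene can have several starts. The CDH4 windows (chr20:61499171-61499420 and chr20:61599511-61599760) lie inside the gene, so the promoter at the 5' end of its listed span was not searched. Those of CTNNA1 spread from chr5:138753175 to chr5:138875399, and whether any lies at its listed 5' end was not checked. GGAATG, the core that TEAD factors are known to bind, was in 0 of 8 on either strand, beside 11.9% of 35116 windows in the table. TGANTCA, the AP-1 letters, was also in 0 of 8, beside 6.57%. CACCTG, an E-box read by repressors of CDH1 such as SNAI1, was in 2 of 8, beside 17.5%. The lines show 30 bases around those matches, with the E-box letters of either strand in capitals, from chr17:41786008-41786037 (minus strand, 54 and 43 bases before a start of JUP) and chr20:61499391-61499420 (plus strand, 16 bases before a start of CDH4).
JUP: ctggcccCACCTGccgagCAGGTGagcgca
CDH4: gcgggactggggtgCAGGTGtgcctggttc

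A match is no more than these letters in this window, and their absence from a window says nothing of the factor.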

How the data were processed

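RNA of 2 vehicle control and 2 MGH-CP1 libraries was sequenced from poly-T selected mRNA as paired reads of 150 bases. The authors deposited FPKM for 48162 genes with gene length in bases; the submitters' processing notes list CASAVA 1.8, STAR and hg19, and the counting tool and annotation are not given in the sources used here. Columns named DMSO were matched to the samples titled Control by replicate number. Multiplied by gene length, 100% of values came out as whole multiples of one unit per library (tolerance 0.01), which gave back the fragment numbers.

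Genes were tested where their mean reached 1 FPKM (12080 genes), and log2(FPKM + 1) was fitted with limma 3.58.1 in R 4.3.3 (lmFit, eBayes with a trend, two-sided), with Benjamini-Hochberg adjustment and a threshold of 0.05. Fold changes are on the log2(FPKM + 1) scale, which understates those of low genes. In simulated data for this comparison, 145 of 150 genes changed by 1 on the log2 scale were recovered among 12060 tested. Of 159 calls, 14 were false, a larger share than the threshold of 0.05. The spread between simulated replicates was set by hand, and far fewer genes were changed than the 6142 called in the data. Smaller changes were not simulated, so these shares need not hold for the data. Intervals are exact Poisson at 95%, and a count of 0 was read as up to 3 fragments.

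The genes and lists were chosen with earlier results of these data known. Named genes are the 10, up to 4 called genes per list and direction by size, CDH1, CDH2, the 5 profiles closest to CDH4, overlapping genes and the nearest tested neighbours of CDH4. The marker genes, VCL, DSP, ARVCF, CTNND2, CTNNA2, CTNNA3, PTPN1, PTPRK and LAMA5 are named outside this rule. Coding sequences are the longest complete ones per gene in GENCODE release 29 (GRCh38); the element was searched in their translation, and no coordinate was converted between builds. Alternatives were quantile normalization, median-ratio scaling, a pseudocount of 0.1, no filter, a minimum mean of 5 FPKM, a replicate block, limma without the trend, limma voom on the recovered fragments, and leaving out each library.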

Additional observations from a re-analysis of the deposited data

How the results depend on the processing

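Over 12 alternatives, CDH4 (-1.27 to -1.06), CDH11 (0.48 to 0.64), CTNND1 (0.27 to 0.36) and JUP (0.92 to 1.14) kept their place on the same side of the threshold, and no log2 fold change of the 6 genes turned sign; all these settings use the same 4 libraries with which the genes were picked, so this shows the range of the values and is no support for them. CTNNA1 (0.15 to 0.31) lost its call in 3, namely without a filter, under quantile normalization and without MGH-CP1 replicate 1. CDH24 (0.16 to 0.29) lost it in 7, namely without a filter, under median-ratio scaling, under quantile normalization and without any of the 4 libraries. The count of the 10 genes called higher was 5 as reported, 3 without a filter, 3 under quantile normalization, and 3 to 4 when a library was left out (3 without MGH-CP1 replicate 1).

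Of the desmosome genes, 5 were called as reported, 2 without a filter, 3 under quantile normalization, 3 without the variance trend, and 2 to 4 when a library was left out (2 without vehicle control replicate 1, 2 without MGH-CP1 replicate 1 and 3 without MGH-CP1 replicate 2). Of the trafficking, cleavage and phosphorylation genes, 12 were called as reported and 6 without a filter. Of the atypical cadherins and protocadherins, 4 were called as reported, 2 at a mean FPKM of at least 5 and 7 with voom. No filter and the higher minimum change how many genes are tested (24878 and 8439); the cause of the other shifts was not tested. Of 25 called genes of the lists named by size of change, 19 were called in every alternative that tested them and 6 lost the call in some, with 0 turning sign. A lone library left in a condition was assumed to vary like the others.

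With the replicate number as a block, 5 of the 10 genes were called higher and 1 lower, and 6518 of all genes were called against 6142. The deviations of same-numbered libraries correlated at 0.078 across genes, so the numbers were not taken as pairs. Median-ratio scaling put the share of higher calls at 44.7% against 53.3%.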
